A study of Mus musculus with 4 samples.

Results

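The genes described here encode 56 non-collagen proteins of the extracellular matrix: glycoproteins and proteoglycans chosen by name, of which 53 were among the 19938 named genes measured. Fbn1, Efemp2 and Spp1 were not analysed here. Each of the 53 had 1 probe set, and they were sorted into 9 families by the class of protein. RNA came from NIH3T3, an established line of mouse embryonic fibroblasts, in the form of a stable clone called p19 that carried pBI-EGFP-FLAG-mCtcfl, a vector for FLAG-tagged mouse Ctcfl, and pTA-N. The 2 Ctcfl samples were grown for 48 h without doxycycline. The 2 control samples carried the same integrated vectors and were kept in 2 µg/ml doxycycline, which represses the transgene in a Tet-Off system. The presence of the drug and the absence of induced Ctcfl therefore cannot be told apart, and all 4 samples came from 1 clone. The vector's name also holds EGFP, and any difference in EGFP between the groups cannot be told apart from these either. Values are log2 RMA values from Affymetrix arrays, on which a difference of 1 is a 2-fold difference. Whether the replicates were grown as separate cultures is not stated in the labels, so the p-values reflect the spread between arrays, which may be technical.

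Fibroblasts secrete and organise the matrix that surrounds them. Small leucine-rich proteoglycans such as decorin bind collagen fibrils and growth factors, and hyalectans such as versican bind hyaluronan. Thrombospondins and tenascins are matricellular proteins, which alter how cells attach and signal more than they bear load. Fibrillins, elastin and fibulins form elastic fibres, and laminins with nidogens and perlecan form basement membranes. Ctcfl encodes a testis-expressed relative of CTCF, a zinc-finger protein that binds DNA and helps to fold chromosomes.

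Ctcfl itself had 10.37 and 10.35 in the Ctcfl samples, against 7.77 and 7.71 in control samples. Both control values lay above the upper quartile of their arrays (7.43 and 7.40), so the control samples cannot be taken to lack Ctcfl RNA. Whether that signal came from the transgene, the cells' own gene or background was not tested. The difference was 2.62 (SE 0.08, adjusted p = 5.38e-04 by limma, but 0.539 to 0.649 with any 1 array left out, although the difference then stayed at 2.59 to 2.65). All 9 fibroblast markers lay above the upper quartile of their array on each array, with a mean of 10.01 to 10.05 in the Ctcfl samples and 10.20 in both control samples. No marker of epithelium, endothelium, blood, bone, fat or germ cells lay above it on each array, while 1 of 5 cartilage markers (Sox9) and 1 of 5 smooth muscle markers (Acta2) did. The mean of the cartilage markers was 5.76 to 5.80 in the Ctcfl samples and 5.76 to 5.83 in control samples. The smooth muscle markers averaged 6.55 on both Ctcfl arrays and 6.43 to 6.45 on the control arrays. Single markers differed more than the list means. Of the 9 fibroblast markers, which include the member Fn1, 7 were lower and 2 higher. At an unadjusted p under 0.05, Pdgfrb (-0.56), Col3a1 (-0.38) and Pdgfra (-0.29) were lower and no fibroblast marker was higher. Of the 5 cartilage markers 2 were lower and 3 higher, and Sox9 (-0.42) and the member Acan (0.285) reached that p. The keratin Krt8 (0.58) was the 1 of 7 epithelial markers at that p. Myh11 (0.235) was the 1 of 5 smooth muscle markers and Zbtb16 (0.21) the 1 of 5 germ cell markers. By sign, 4 epithelial markers were lower and 3 higher, 1 smooth muscle marker lower and 4 higher, and 4 germ cell markers lower and 1 higher. None of the markers at that p passed over all genes (adjusted p from 0.18 to 0.462 by limma). Their part in the results below was not tested.

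Decorin, the thrombospondins Thbs1 and Thbs2, Smoc1, tenascin C and Mfap5 were lower in both Ctcfl samples than in either control sample, by 1.26-fold to 1.88-fold, and matrilin 2 was 1.36-fold higher. In bulk RNA, fewer cells that make a transcript and less of it per cell cannot be told apart. No member passed an adjusted p of 0.05 over all genes by limma, a model fitted on every gene at once, where 0.0451% of all genes passed (0.015% lower and 0.0301% higher). At an unadjusted p under 0.05 there were 10 members of 53, or 18.9%, against 10.7% of all genes. Of these, 7 were lower (13.2% of members, against 5.32% of all genes) and 3 higher (5.66%, against 5.36%). The members were chosen with earlier results of these data known, so these shares describe the list and are no test of it. The members' count rested in part on single arrays. It fell without either control array or Ctcfl replicate 1 and rose without Ctcfl replicate 2, while the count of all genes fell each time. A group then holds 1 array, so those counts are not compared here. The median log2 change of the members then ran from -0.025 to 0.02. Counted by sign alone, 26 members were lower and 27 higher, against 48.6% and 49.9% of all genes, with a median log2 change of 0.005, where that of all genes was 0.00. This split turned with the scaling, to 29 lower and 24 higher (median -0.0088) after quantile normalisation and to 32 lower and 19 higher (median -0.015) after median centring. In 22 members (41.5%) the groups did not overlap, against 41.1% of all genes, so this share was near the background. Of those 22, 13 were lower (20.6% of all genes were) and 9 higher (also 20.6% of all genes). A difference of at least 0.3 in size without overlap was found in 7 members (13.2%), against 5.58% of all genes.

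The limma fit with an intensity trend and robust variances, which lets bright genes have smaller errors and here shared the error more strongly between genes (a median of 14.3 prior degrees of freedom, against 4.21), called 8 members where it called 2.4% of all genes. It called 6 lower (1.3% of all genes), namely Dcn, Thbs1, Thbs2, Smoc1, Tnc and Vcan, and 2 higher (1.1% of all genes), Matn2 and Nid1. The calls thus depend on how the error of each gene is estimated. With 2 arrays in each group, an exact two-sided permutation test of a single gene cannot go below p = 0.333.

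**Figure D1:**
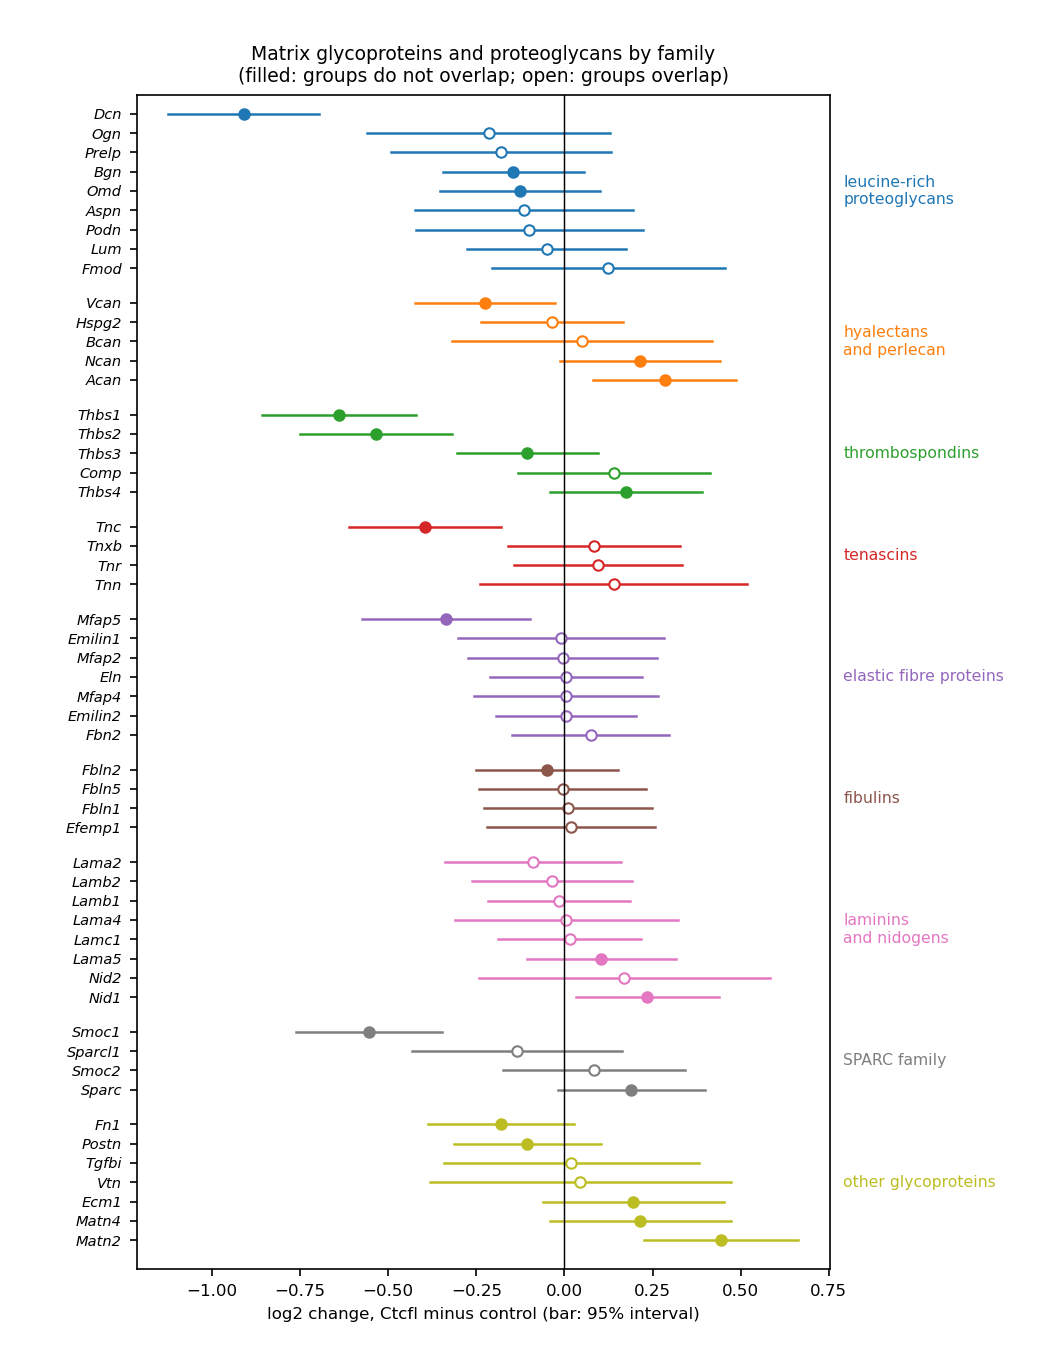
Log2 change (Ctcfl minus control) of the 53 measured members, one per row, grouped by family, with the 95% interval of the limma fit as a bar. Filled points mark the 22 members whose groups did not overlap. Dcn at -0.91 lies farthest left and Matn2 at 0.45 farthest right, while elastic fibre proteins other than Mfap5 and all 4 fibulins lie close to 0.

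Among the leucine-rich proteoglycans, decorin stood apart. Dcn, whose protein coats collagen fibrils and binds TGF-beta, had 7.33 and 7.44 in the Ctcfl samples, against 8.32 and 8.27 in control samples. The groups were separated by far more than their replicates differed. Its mean was 7.38 ± 0.08 in Ctcfl samples and 8.29 ± 0.04 in control samples (SD, n = 2 each), a difference of -0.91 (SE 0.09, 95% interval -1.12 to -0.70), or 1.88-fold lower. This was the 15th largest difference in size among all named genes, but its adjusted p of 0.0657 by limma missed the threshold. It passed with an intensity trend and robust variances (adjusted p = 4.67e-06), without the dimmest 33.3% of genes (0.0311) and with median centring (0.0173). With an array left out, the difference stayed between -0.97 and -0.86 and did not pass.

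Of the 9 leucine-rich proteoglycan genes 8 were lower, with a median of -0.13, but only for Dcn did the 95% interval leave out 0. Biglycan, Bgn, the closest relative of decorin among them, had 11.34 and 11.33 in the Ctcfl samples and 11.50 and 11.46 in control samples. Its groups did not overlap, and the difference was -0.15 (95% interval -0.35 to 0.06), an interval that does not reach that of Dcn. Osteomodulin, Omd, also kept its groups apart, at 3.60 and 3.45 in the Ctcfl samples and 3.68 and 3.62 in control samples. Groups overlapped for Ogn (-0.22), Prelp (-0.18), Aspn (-0.12), Podn (-0.10), Lum (-0.05) and Fmod (0.13). Lum, Aspn and Omd lay below the lower quartile of each array, so low that signal and background could not be told apart without detection calls. The family's median was -0.17 without Ctcfl replicate 2 and -0.07 without control replicate 1.

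Several of these genes are neighbours on their chromosomes. In the RefSeq gene order Dcn and Lum, which encodes the corneal and skin proteoglycan lumican, are next to each other with no protein-coding gene between them. Dcn was 1.88-fold lower, while Lum had 2.93 and 2.82 in the Ctcfl samples and 2.98 and 2.87 in control samples, below the lower quartile of the arrays in both groups. Aspn, Omd and Ogn form a run on chromosome 13, and Prelp and Fmod adjoin on chromosome 1. Differences ran from -0.22 to -0.12 in the first cluster and were -0.18 and 0.13 in the other.

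The hyalectans and perlecan showed differences in both directions, 2 lower and 3 higher. Versican, Vcan, the hyaluronan-binding chondroitin sulfate proteoglycan of loose connective tissue, had 10.45 and 10.46 in the Ctcfl samples and 10.68 on both control arrays. Replicates were nearly identical, and the difference of -0.23 (SE 0.08, adjusted p = 0.435 by limma) passed only with an intensity trend and robust variances (adjusted p = 0.0317). Aggrecan, Acan, the main proteoglycan of cartilage, had 4.58 and 4.54 in the Ctcfl samples and 4.25 and 4.30 in control samples. It was 1.22-fold higher (0.29, SE 0.08, adjusted p = 0.37), all at levels below the median of the arrays. Neurocan, Ncan, known from brain, had 5.29 and 5.13 in the Ctcfl samples and 5.01 and 4.98 in control samples, a difference of 0.22. Brevican, Bcan, also a brain proteoglycan, differed by 0.05 with overlapping groups. Bcan lay below the median of each array, and Ncan below it on each array except Ctcfl replicate 1. For Acan, Ncan and Bcan, the higher genes, nearness to background limits what could be seen. Perlecan, Hspg2, the heparan sulfate proteoglycan of basement membranes, differed by -0.04 (95% interval -0.24 to 0.17). The median of these 5 genes, 0.05, turned to -0.05 without Ctcfl replicate 2.

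Among the thrombospondins the larger differences were those of Thbs1 and Thbs2. Thbs1 and Thbs2 encode the trimeric members, which bind the receptors CD36 and CD47 and restrain blood vessel growth, and thrombospondin 1 can also activate latent TGF-beta. Thbs1 had 9.30 and 9.36 in the Ctcfl samples, against 10.03 and 9.91 in control samples. Thbs2 had 9.89 and 9.79 in the Ctcfl samples, against 10.34 and 10.41 in control samples. In both genes the Ctcfl arrays lay clearly below the control arrays. Thbs1 was 1.56-fold lower (-0.64, SE 0.09, adjusted p = 0.147) and Thbs2 1.45-fold lower (-0.54, SE 0.09, adjusted p = 0.18, both by limma). With an intensity trend and robust variances their adjusted p-values were 2.05e-05 and 8.06e-05. With another scaling or an array left out, the differences ran from -0.70 to -0.58 for Thbs1 and from -0.59 to -0.49 for Thbs2.

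The pentameric thrombospondins had smaller differences of mixed sign. Thbs3 had 5.76 and 5.71 in the Ctcfl samples and 5.84 on both control arrays, a difference of -0.11. Thbs4 had 4.79 and 4.80 in the Ctcfl samples and 4.68 and 4.56 in control samples, a difference of 0.18. Comp, the cartilage oligomeric matrix protein, differed by 0.14 with overlapping groups. Thbs4 and Comp lay below the median of each array. The difference between the trimeric and the pentameric genes was not tested.

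Of the tenascins, 1 was lower and 3 were higher. Tenascin C, Tnc, which loosens the attachment of cells to fibronectin and is made in wounds and tumour stroma, had 9.67 and 9.79 in the Ctcfl samples, against 10.14 and 10.11 in control samples. Groups did not overlap, and Tnc was 1.31-fold lower (-0.40, SE 0.09, adjusted p = 0.283 by limma, and 0.00168 with the trend and robust variances). The other tenascins had overlapping groups, with differences of 0.09 for Tnxb, which supports collagen in skin, 0.14 for Tnn and 0.10 for Tnr, a tenascin of the nervous system. The family's median of 0.09 became -0.16 without the dimmest 33.3% of genes, where only Tnc and Tnxb remained.

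**Figure D2:**
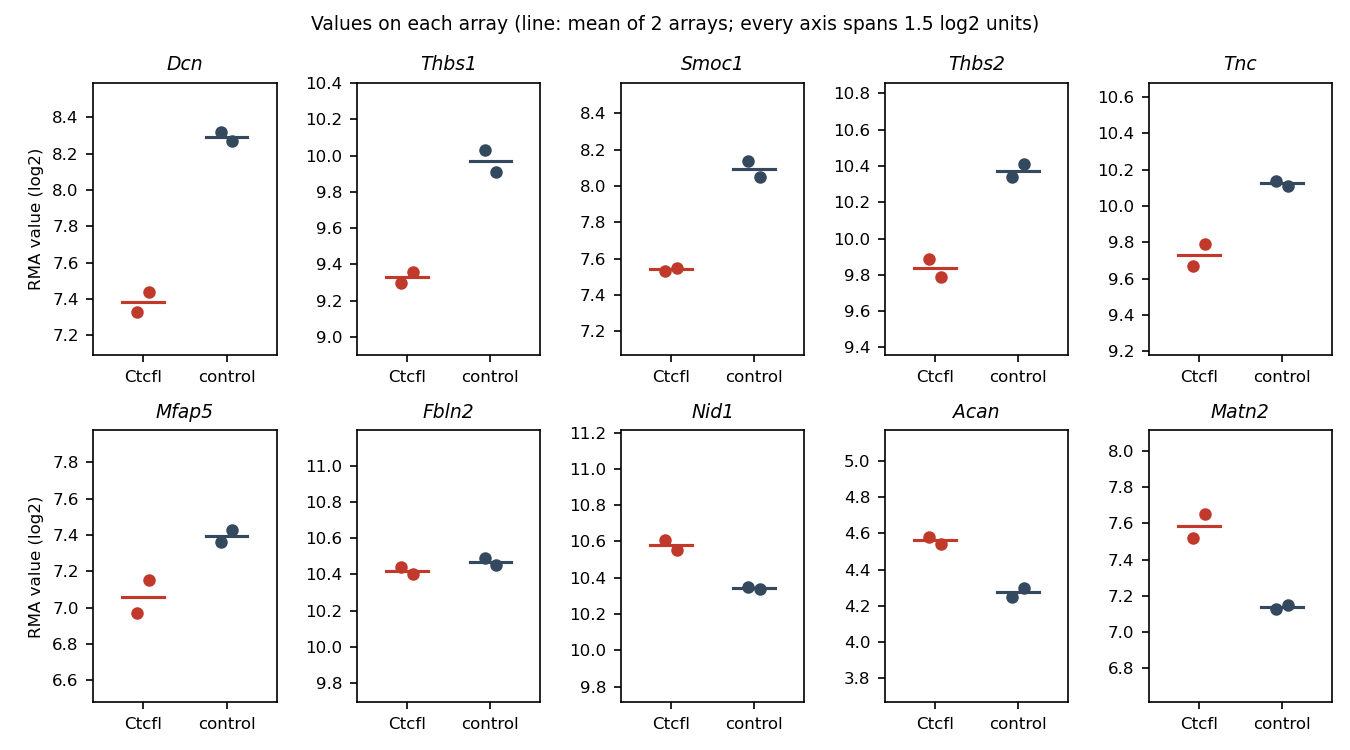
RMA value (log2) on each array for the 10 members chosen by the rule for named genes, ordered by log2 change, with the Ctcfl samples left of the control samples and a line at each mean. Every vertical axis spans 1.5 log2 units, so distances can be compared between panels. The gap narrows from Dcn (-0.91) to Mfap5 (-0.34), is about as small as the replicate spread for Fbln2, and lies the other way for Nid1, Acan and Matn2.

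RefSeq start regions were available here for 37 of the 53 measured members. Dcn, Thbs1, Smoc1 and Matn2 were not among them, though each differed more than the genes printed below in its direction. The 250 bases before the most upstream start are printed for the 2 members with the largest difference in each direction among those 37 whose groups did not overlap, as examples of the DNA before genes on both sides of the comparison. The build is GRCm38.p6 and the strand is that of the gene. Thbs2 lies at chr17:14694263-14694512 on the minus strand, Tnc at chr4:64047016-64047265 on the minus strand, Acan at chr7:79052976-79053225 on the plus strand and Nid1 at chr13:13437352-13437601 on the plus strand. Capitals mark CCCTC, the letters after which CTCF was named, or GAGGG, the same letters read on the other strand.
Thbs2: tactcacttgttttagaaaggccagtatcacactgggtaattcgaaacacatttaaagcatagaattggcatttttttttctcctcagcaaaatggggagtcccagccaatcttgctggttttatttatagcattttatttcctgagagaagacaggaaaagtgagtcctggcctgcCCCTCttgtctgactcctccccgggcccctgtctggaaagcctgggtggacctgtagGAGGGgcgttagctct
Tnc: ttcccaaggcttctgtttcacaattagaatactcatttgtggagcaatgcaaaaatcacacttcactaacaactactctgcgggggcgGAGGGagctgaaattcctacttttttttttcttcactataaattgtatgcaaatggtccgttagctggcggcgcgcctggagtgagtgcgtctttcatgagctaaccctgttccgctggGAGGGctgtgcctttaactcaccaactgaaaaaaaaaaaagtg
Acan: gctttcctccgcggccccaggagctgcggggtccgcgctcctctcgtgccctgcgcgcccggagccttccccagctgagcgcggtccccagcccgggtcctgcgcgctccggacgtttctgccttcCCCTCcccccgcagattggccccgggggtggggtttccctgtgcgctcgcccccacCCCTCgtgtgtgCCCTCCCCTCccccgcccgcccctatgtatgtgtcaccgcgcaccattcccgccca
Nid1: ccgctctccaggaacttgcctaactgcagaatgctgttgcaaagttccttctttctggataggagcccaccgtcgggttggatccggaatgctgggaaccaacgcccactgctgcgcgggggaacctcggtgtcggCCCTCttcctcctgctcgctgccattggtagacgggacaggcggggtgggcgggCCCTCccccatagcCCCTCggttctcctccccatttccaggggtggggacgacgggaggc
Thbs2 and Tnc, both lower, held 2 matches each, while Acan held 4 and Nid1 held 3, both higher. Their G and C content ran the same way, at 46.8% in Thbs2 and 44.8% in Tnc, against 74.4% in Acan and 64.4% in Nid1. The pentamer is common: it was in 59.7% of all 27025 genes' start regions of this length and in 29 of 37 member regions (78.4%). Of these 29, 15 belonged to genes with a lower value. Among all 53 measured members 26 were lower, but that count includes members without a start region, so the shares are not compared. The GC box letters GGGCGG were in 33% of all regions and 18 member regions (48.6%), among them Tnc, Acan and Nid1. TATAAA was in 13% of all regions and 7 member regions (18.9%), among them Thbs2 and Tnc. All 3 motifs were searched on both strands, and the first 2 can overlap. A match describes letters and is no measured binding site.

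Elastic fibre genes were close to level except for 1. Mfap5, a glycoprotein that decorates fibrillin microfibrils, had 6.97 and 7.15 in the Ctcfl samples, against 7.36 and 7.43 in control samples. Its groups did not overlap, and it was 1.26-fold lower (-0.34, SE 0.10, adjusted p = 0.37 by limma). It did not pass with an intensity trend and robust variances either (adjusted p = 0.0716). The other 6 genes had overlapping groups. Emilin2, which lies at elastic fibre surfaces, had 8.13 and 8.14 in the Ctcfl samples and 8.13 on both control arrays, and its 95% interval ran from -0.19 to 0.20. Elastin itself, Eln, differed by 0.005 (95% interval -0.21 to 0.22). Differences were -0.01 for Emilin1, -0.005 for Mfap2, 0.005 for Mfap4 and 0.08 for the fibrillin Fbn2. Mfap4 and Fbn2 lay below the median of each array, where nearness to background limits what could be seen.

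Fibulins bridge elastic fibres and basement membranes, and none of the 4 measured differed by more than 0.05 in size. Fbln2 had 10.44 and 10.40 in the Ctcfl samples and 10.49 and 10.45 in control samples. Its groups did not overlap, but the difference of -0.05 was about the size of the replicate spread (SE 0.08, 95% interval -0.25 to 0.15, adjusted p = 0.858 by limma). Fbln5, which is needed to assemble elastic fibres, had 9.52 and 9.38 in the Ctcfl samples and 9.52 and 9.39 in control samples. Fbln1 differed by 0.01 and Efemp1 by 0.02, with overlapping groups.

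Laminin chains were also close to level. Laminins are trimers of alpha, beta and gamma chains that form the sheet of basement membranes. Lamb1 and Lamc1, chains of the widespread laminin of early tissues, had differences of -0.02 (95% interval -0.22 to 0.19) and 0.02 (95% interval -0.19 to 0.22). Those intervals leave out any change as large as that of Dcn. Lamb2 differed by -0.04, and the alpha chain genes by -0.09 (Lama2), 0.005 (Lama4) and 0.11 (Lama5), of which only Lama5 kept its groups apart. These 3 alpha chain genes lay below the median of each array, where nearness to background limits what could be seen.

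The nidogens, which link laminin to collagen IV, both had higher values. Nid1 had 10.61 and 10.55 in the Ctcfl samples, against 10.35 and 10.34 in control samples. Its Ctcfl arrays lay above both control arrays, and it was 1.18-fold higher (0.24, SE 0.08, adjusted p = 0.431 by limma, and 0.0302 with the trend and robust variances). Nid2 had 5.33 and 4.83 in the Ctcfl samples and 4.83 and 4.99 in control samples, and only Ctcfl replicate 1 lay above both control arrays.

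Within the SPARC family the members differed in opposite directions. Smoc1, a calcium-binding matricellular protein that modulates BMP signalling, had 7.53 and 7.55 in the Ctcfl samples, against 8.14 and 8.05 in control samples. It was 1.47-fold lower (-0.56, SE 0.09, adjusted p = 0.1595 by limma, and 7.08e-04 with the trend and robust variances). Its relative Smoc2 had 5.08 and 5.09 in the Ctcfl samples and 4.88 and 5.12 in control samples, so the groups overlapped. Smoc2 is the neighbour of Thbs2 in the RefSeq order, with no protein-coding gene between them. Sparc, the collagen-binding protein osteonectin, had 10.92 and 10.99 in the Ctcfl samples and 10.80 and 10.73 in control samples, a difference of 0.19 (95% interval -0.02 to 0.40). Sparcl1 differed by -0.14 with overlapping groups.

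Among the other glycoproteins, matrilin 2 had the largest positive difference of all members. Matn2, which forms filaments that connect matrix networks, had 7.52 and 7.65 in the Ctcfl samples, against 7.13 and 7.15 in control samples. Its groups were well apart, and it was 1.36-fold higher (0.45, SE 0.09, adjusted p = 0.258 by limma, and 0.00997 with the trend and robust variances). Matn4, another matrilin, had 5.0 and 4.94 in the Ctcfl samples and 4.64 and 4.87 in control samples, below the median of each array. Fibronectin, Fn1, the main adhesive protein of fibroblast matrix, had 10.96 and 11.04 in the Ctcfl samples and 11.19 and 11.17 in control samples. Its groups did not overlap, and the difference was -0.18 (95% interval -0.39 to 0.03). Ecm1 differed by 0.195 and Postn by -0.11 without overlap, while Tgfbi (0.02) and Vtn (0.05) had overlapping groups. The family's median of 0.05 was 0.185 without Ctcfl replicate 1 and 0.165 without control replicate 2.

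All 7 members with a difference of at least 0.3 in size lay above the median of each array. On each array 18 of the 53 members lay above the upper quartile, which was 7.40 to 7.43. Of these, 12 were lower and 6 higher, and 5 lower and 1 higher had an unadjusted p under 0.05. Of the 5479 named genes above that quartile, 2815 were lower and 2574 higher, and 317 lower and 265 higher reached that p. Another 22 members lay below the median of each array (5.20 to 5.24). Of all members 84.9% differed by at most 1.2-fold, against 91.2% of all genes. For 47 members (88.7%) the 95% interval excluded a 1.5-fold difference in either direction, against 93.7% of all genes, and Dcn was the 1 member whose interval lay wholly beyond it.

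**Figure D3:**
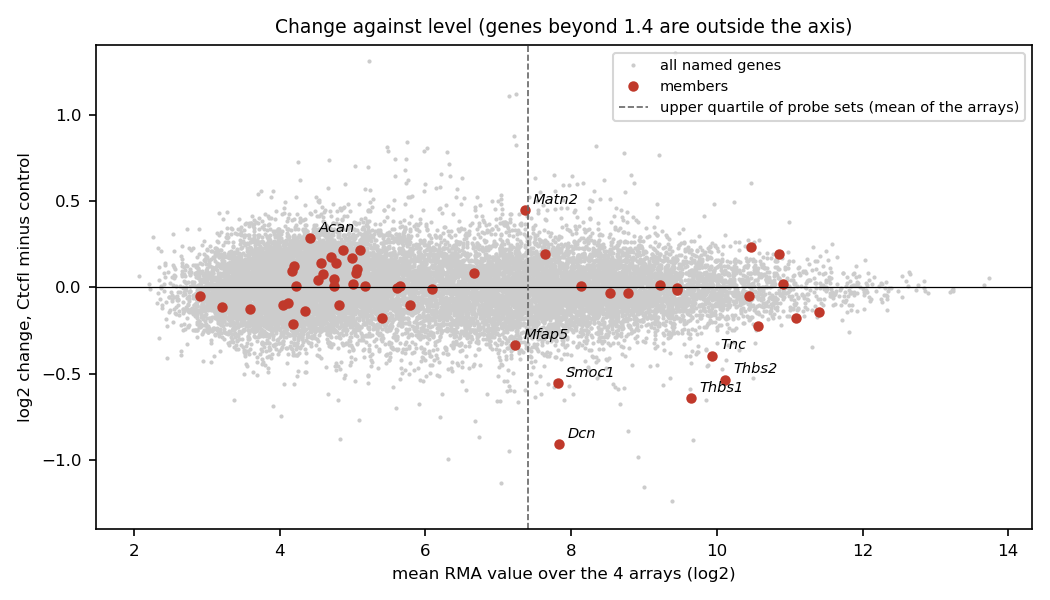
Log2 change (Ctcfl minus control) against the mean RMA value over the 4 arrays, with all named genes in grey and the 53 members in red. The dashed line is the mean upper quartile of the arrays, and 4 genes beyond 1.4 are outside the axis. Dcn, Smoc1, Thbs1, Thbs2 and Tnc lie right of the line and below most genes of like level, and Acan is the only labelled member at the dim end.

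Genes that make, bind or accompany these proteins were read from the same fit. Enzymes that build the sugar chains of proteoglycans showed no common direction: 19 of 34 measured were lower and 15 higher, with a median of -0.03, and none passed over all genes. At an unadjusted p under 0.05, 3 were lower and 4 higher. Papss2, which makes the sulfate donor for chain sulfation, had 6.60 and 6.77 in the Ctcfl samples, against 5.94 and 6.0 in control samples. It was 1.64-fold higher (0.72, SE 0.10, adjusted p = 0.133 by limma). Csgalnact1, which starts chondroitin chains, had 6.85 and 6.78 in the Ctcfl samples and 7.31 and 7.16 in control samples, a difference of -0.42. The heparan sulfate polymerase gene Ext2 differed by 0.35 and the dermatan sulfate epimerase relative Dsel by 0.26, both without overlap.

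Matrix receptors, 31 measured, were higher in 21 and lower in 9, with a median of 0.03 and none past the threshold (12 lower and 19 higher after median centring). Unadjusted, 4 were higher and 3 lower at p under 0.05. Tlr2, an innate immune receptor that biglycan can bind, had 6.11 and 5.96 in the Ctcfl samples and 5.47 and 5.39 in control samples, a 1.52-fold higher value (0.61, SE 0.09, adjusted p = 0.163 by limma). Itgb8, a chain of an integrin that activates TGF-beta, had 5.0 and 4.93 in the Ctcfl samples and 5.44 and 5.50 in control samples, a difference of -0.51. The collagen-binding integrin chain Itga1 differed by 0.43, with both control values below the lower quartile of their arrays. The laminin-binding chain Itga3 differed by 0.26. Cd36 and Cd47, receptors of the trimeric thrombospondins, differed by -0.14 with overlapping groups and by 0.245 without overlap. Cd36 lay below the lower quartile of each array, so low that signal and background could not be told apart without detection calls. The hyaluronan receptor Cd44 had a difference of 0.00.

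Collagens that carry leucine-rich proteoglycans included the 1 gene of these lists that passed. Col5a2, a chain of the collagen that limits fibril width, had 10.10 on both Ctcfl arrays, against 8.78 and 8.71 in control samples (1.36, SE 0.08, adjusted p = 0.0105 by limma, and 0.539 to 0.649 with any 1 array left out, with differences of 1.32 to 1.39). Of the 11 measured collagens 6 were lower and 5 higher, with a median of -0.02. Col6a3 had 7.41 and 7.16 in the Ctcfl samples and 7.99 and 7.81 in control samples, a difference of -0.62. Its partner chains Col6a1 and Col6a2 differed by -0.15 and 0.22. Col3a1 had a difference of -0.38, while Col1a1 and Col1a2, the chains of the main fibrillar collagen that decorin binds, differed by 0.07 and -0.07.

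The TGF-beta system, which decorin, thrombospondin 1 and the latent binding proteins can hold or release, had 8 of 11 measured genes lower, with a median of -0.14 and none past the threshold. Tgfb1, the ligand gene, had 8.08 and 8.03 in the Ctcfl samples, against 7.47 and 7.53 in control samples. It was 1.47-fold higher (0.56, SE 0.08, adjusted p = 0.156 by limma). Tgfb3 was lower by contrast, at 6.93 and 6.89 in the Ctcfl samples and 7.17 and 7.19 in control samples. Ltbp2, a microfibril-associated protein of the latent TGF-beta binding family, had 6.21 and 6.32 in the Ctcfl samples and 6.94 and 6.78 in control samples, 1.51-fold lower (-0.60, SE 0.10, adjusted p = 0.18). Ltbp1, which tethers latent TGF-beta to the matrix, differed by -0.30. The receptor genes Tgfbr1, Tgfbr2 and Tgfbr3 differed by 0.05, 0.13 and -0.07.

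**Figure D4:**
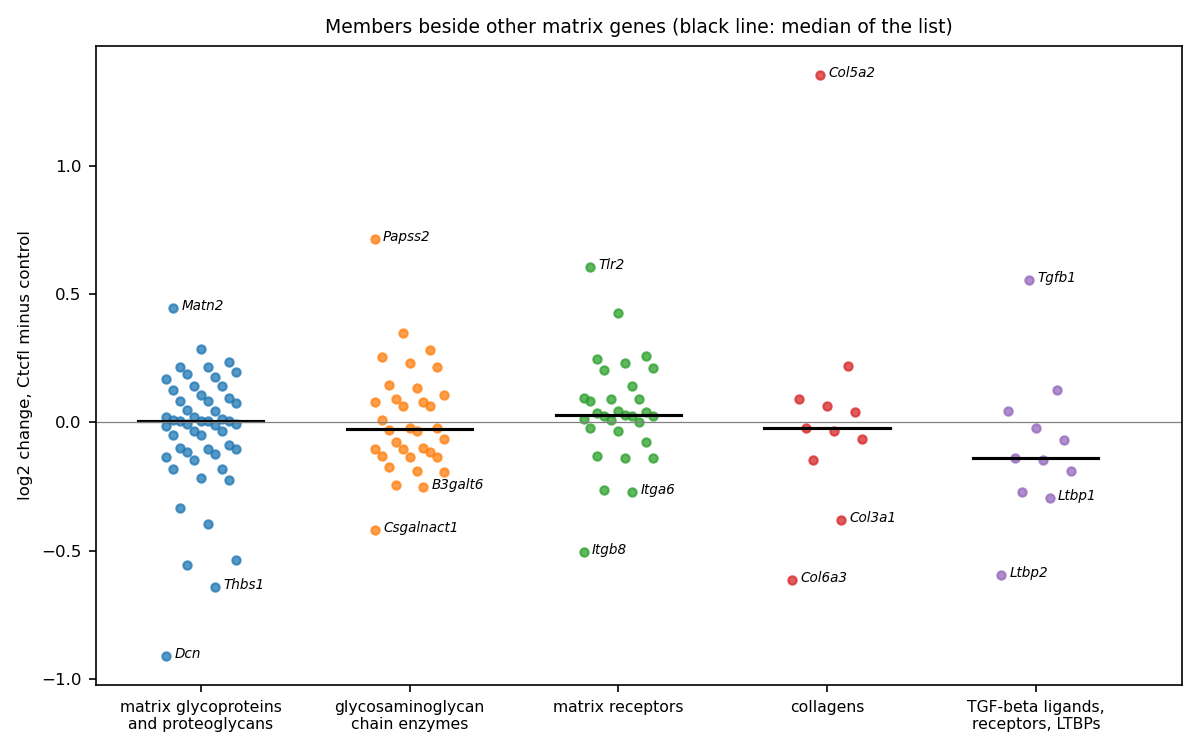
Log2 change (Ctcfl minus control) of each measured gene in 5 lists, with the median of each list as a black line and the most extreme genes named. The medians run from -0.14 for the TGF-beta list to 0.03 for matrix receptors. Col5a2 at 1.36 is the highest point and Dcn at -0.91 the lowest.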

How the data were processed

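RNA of 4 samples was measured on Affymetrix arrays, 2 Ctcfl and 2 control. The deposited log2 values are RMA values that the authors made with Expression Console, per the labels' descriptions. RMA corrects background, normalises arrays by quantiles and summarises each probe set. Its version and settings are not given in the sources used here, and no detection calls were used. Of 35511 probe sets with values, 21789 had 1 gene symbol in the platform annotation, 1621 had several and 12101 were not listed. Symbols were checked against RefSeq GRCm38.p6 by gene identifier (21698 matched, 0 changed). The brightest probe set stood for each gene, which gave 19938 genes. Dim genes were kept.

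The groups were tested two-sided by lmFit and eBayes of limma 3.58.1 (R 4.3.3). P-values were adjusted by Benjamini-Hochberg over all 19938 genes, and 0.05 was the threshold. The code was tested on simulated data. Intervals are 95% for single genes, not adjusted for their number, and cover only the spread between 4 arrays. The members, families, other lists and tests were chosen with earlier results of these data known. Values per array with SE and adjusted p are given for members whose groups did not overlap and differed by at least 0.3, and otherwise for the largest in each family. For each other list, the genes past the threshold and the 4 with the smallest p were named. Any other member or gene was picked with its values in view. Alternatives were quantile normalisation, median centring, leaving out dim genes, robust variances with an intensity trend (statmod 1.5.0), averaging probe sets, ordinary t statistics, a replicate block and each array left out. Python 3.11.15 with matplotlib 3.10.9 drew the figures.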

Additional observations from a re-analysis of the deposited data

How the results depend on the processing

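By limma, 9 genes passed over all genes (3 lower, 6 higher) and no member did (10 members at an unadjusted p under 0.05). With an intensity trend and robust variances 479 genes passed (259 lower, 220 higher), among them 8 members (6 lower, 2 higher). Without the dimmest 33.3% of genes 20 passed (7 lower, 13 higher) and with median centring 31 (15 lower, 16 higher), each with 1 member, Dcn, which was lower. The estimated prior had 4.21 degrees of freedom, against 14.3 (median) with the trend and robust variances and 6.80 with median centring. The cause of these changes was not tested. No gene passed with ordinary t statistics (1940 unadjusted), with the replicate block (1468 unadjusted), or with any array left out (1329 to 1663 unadjusted). Same-numbered samples deviated with a correlation of -0.10. Over all genes their deviations were thus not positively correlated, which cannot tell whether the samples were paired. A block with crossed numbers, added after seeing the data, called 0 genes (2105 unadjusted). Quantile normalisation and the mean of probe sets changed no call of a member.

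Under the settings that can move a log2 change (another scaling or an array left out), the members chosen by the rule kept their direction; the other settings leave it as it is. Without the dimmest genes, fewer members remained, and the family medians were 0.0075 for hyalectans and perlecan, -0.155 for tenascins, 0.085 for the SPARC family and 0.195 for other glycoproteins. With an array left out, the medians ran from -0.17 to -0.065 for leucine-rich proteoglycans, -0.13 to -0.08 for thrombospondins, -0.045 to 0.135 for hyalectans and perlecan, -0.0275 to 0.145 for tenascins, -0.0375 to 0.0025 for fibulins, 0.02 to 0.185 for other glycoproteins, -0.10 to 0.05 for the SPARC family, -0.08 to 0.065 for elastic fibre proteins and -0.045 to 0.065 for laminins and nidogens, so those of 6 families changed sign. The median of all members ran from -0.025 to 0.02. For the 22 members below the median of the arrays, nearness to background limits what could be seen.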
